A study of Saccharomyces cerevisiae with 16 samples.

Results

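The genes by which Saccharomyces cerevisiae takes up and breaks down allantoin and urea were followed across 4 culture conditions of a wine yeast. The members were 10 genes given by name, DAL1, DAL2, DAL3, DAL4, DAL5, DAL7, DAL81, DAL82, DUR1,2 and DUR3, and a probe was taken when the array's annotation gave it 1 of these symbols. DUR1,2, the urea amidolyase, had no probe under that symbol and was not analysed here. The other 9 members had 1 probe each, and they are 9 of 6248 features measured.

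All cultures were EC1118, a commercial diploid wine strain, in a synthetic grape must with glucose at 200 g/L and assimilable nitrogen at 100 mg/L. The ammonium group (3 samples) and the valine group (3 samples) came from the third tank of a continuous fermentation of 4 tanks in series, into which that compound was fed to supply a further 100 mg/L nitrogen. The no-addition group (4 samples) came from the same tank before any feed, where resting cells had exhausted the nitrogen and 164 g/L glucose remained. The batch group (4 samples) came from stationary phase of ordinary fermentations at 28 °C, taken at that same residual glucose. Samples of a continuous condition were drawn 24 h apart from a running culture. The labels call these samplings independent and the samples biological replicates, but no separate continuous culture is named, so the p-values measure only the spread between samples, which may be technical. Condition cannot be told apart from time in the run.

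Allantoin is a nitrogen-rich product of purine breakdown that yeast can store and use when better nitrogen runs out. It enters through the permease Dal4, is opened to allantoate by Dal1, and is cut by Dal2 and Dal3 to urea and glyoxylate. Urea is also imported by Dur3, and Dur1,2 turns it into ammonia by way of allophanate, which is the inducer of most of the pathway. The genes are held low by nitrogen catabolite repression, in which good nitrogen sources keep the GATA activators Gln3 and Gat1 away from their targets. Dal81 and Dal82 carry the response to the inducer, and the GATA factor Dal80 represses.

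Each value is a log2 intensity from a single-dye (Cy3) oligonucleotide array, so a difference of 1 is a 2-fold change in signal. Total RNA per cell is not seen by this measure. No array had a minimum above 5.56, and the lowest member value in any sample was 8.18. Samples of a group differed from each other with an SD of 0.11 to 0.30 over features. The 2 arrays of ammonium sample 3, averaged before any test, differed with an SD of 0.17. Ammonium sample 2, valine sample 3 and batch sample 1 lay farthest from the rest of their groups, and 1 further sample with contradictory labels entered no comparison. The labels give each hybridisation 1 of 2 array numbers, here called slides 1 and 2. Differences were tested with limma over all features, and genes under 0.05 after Benjamini-Hochberg adjustment are those termed called.

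The 3 transporters split into different patterns. DAL4, the allantoin permease, had 8.72, 10.23 and 8.73 in ammonium samples 1 to 3 and 8.21, 8.18 and 8.32 in valine samples, against 12.75, 12.70, 12.40 and 12.67 without addition and 12.11, 11.89, 11.95 and 11.97 in batch. Both supplemented groups lay below every unsupplemented sample, and ammonium sample 2 stood between them. DAL5, the permease for allantoate and ureidosuccinate, had 12.00, 12.48 and 11.67 with ammonium and 13.71, 13.68 and 13.28 with valine, against 13.49, 13.63, 13.37 and 13.54 without addition and 13.58, 13.91, 13.99 and 14.04 in batch. Here the ammonium samples were low and the valine samples overlapped the no-addition samples. The urea permease DUR3 had 11.82, 13.20 and 11.86 with ammonium and 13.93, 14.08 and 14.05 with valine, against 13.99, 14.29, 14.18 and 14.16 without addition and 14.22, 14.36, 14.70 and 14.54 in batch. As in DAL5, the ammonium samples lay below all others.

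**Figure D1:**
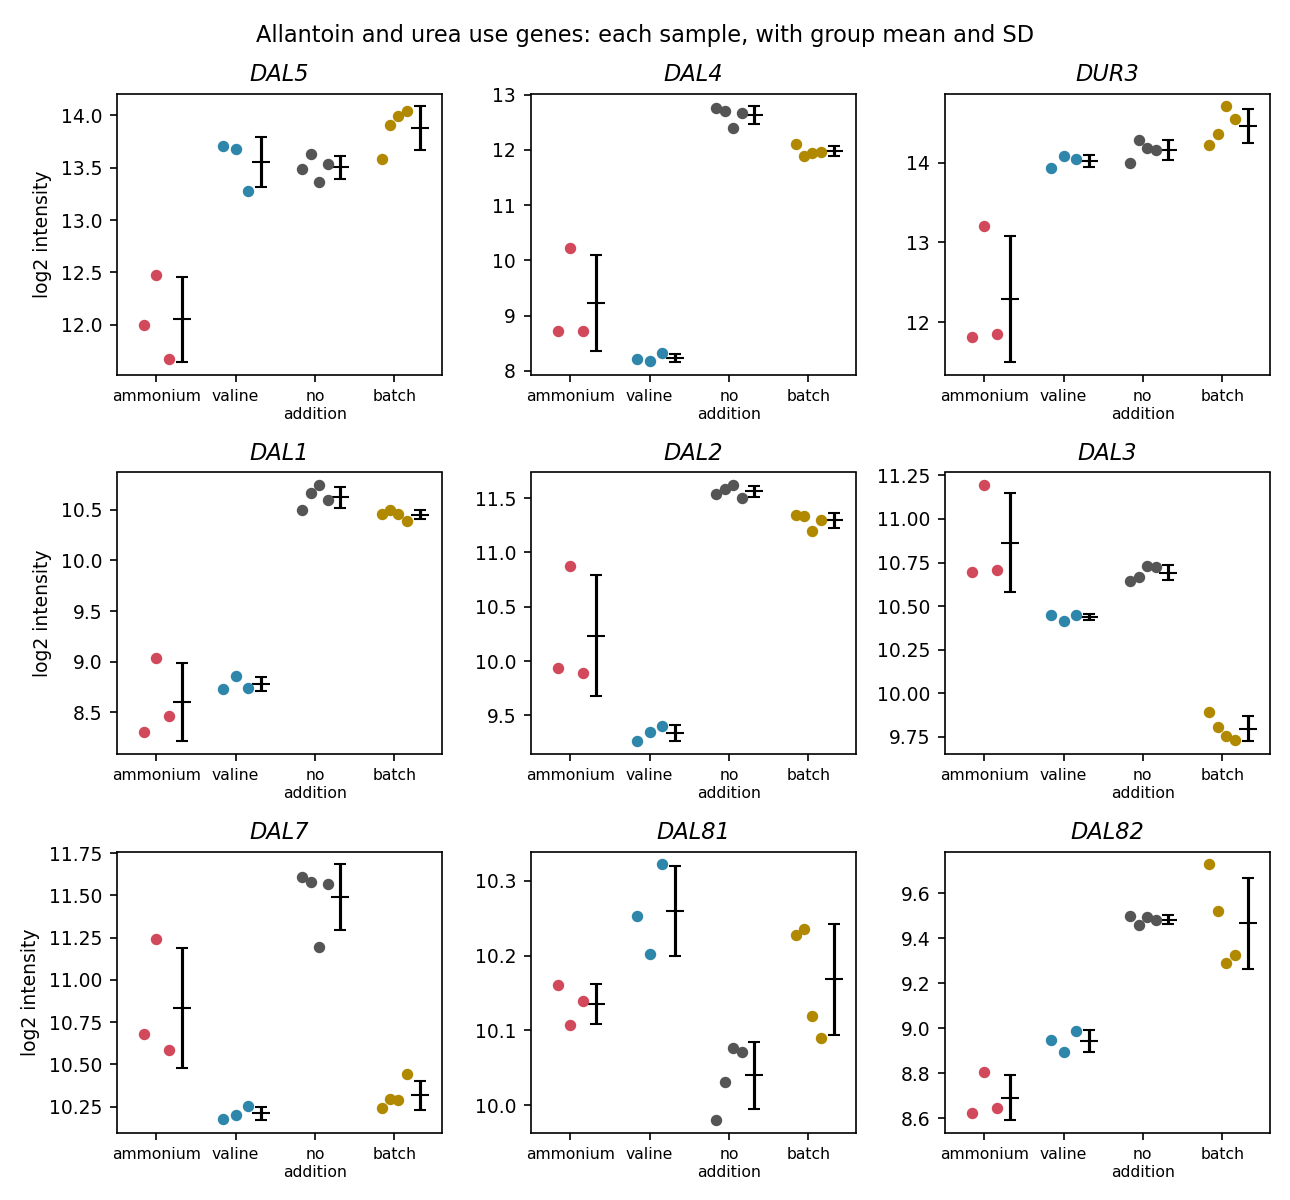
Log2 intensity (y axis) of the 9 measured members in each sample (points), by group (x axis), with the group mean and SD (black); y axes do not start at 0 and differ between panels. DAL4, DAL1, DAL2 and DAL82 were low with either supplement, DAL5 and DUR3 were low with ammonium alone, and ammonium sample 2 was the highest ammonium sample in all panels but that of DAL81.

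Among the enzymes, DAL1 (allantoinase, the first step) had 8.30, 9.04 and 8.47 with ammonium and 8.73, 8.85 and 8.74 with valine, against 10.50, 10.66, 10.74 and 10.59 without addition and 10.46, 10.50, 10.46 and 10.39 in batch. DAL2 (allantoicase) had 9.93, 10.87 and 9.89 with ammonium and 9.26, 9.34 and 9.41 with valine, against 11.54, 11.58, 11.62 and 11.50 without addition and 11.34, 11.33, 11.20 and 11.30 in batch. In both genes no supplemented sample reached any unsupplemented one. DAL3 (ureidoglycolate lyase) had 10.69, 11.19 and 10.70 with ammonium and 10.45, 10.42 and 10.45 with valine, against 10.64, 10.67, 10.73 and 10.72 without addition and 9.89, 9.81, 9.75 and 9.73 in batch. DAL3 was thus lowest in batch, and its ammonium and no-addition samples overlapped. DAL7, a malate synthase that can use the glyoxylate released from allantoin, had 10.68, 11.24 and 10.59 with ammonium and 10.18, 10.20 and 10.25 with valine, against 11.61, 11.58, 11.20 and 11.57 without addition and 10.24, 10.30, 10.29 and 10.44 in batch. The valine and batch samples of DAL7 overlapped at the low end.

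Of the regulators, DAL82 had 8.62, 8.81 and 8.65 with ammonium and 8.95, 8.89 and 8.99 with valine, against 9.50, 9.46, 9.49 and 9.48 without addition and 9.73, 9.52, 9.29 and 9.33 in batch. Supplemented samples were again all below the others. DAL81, which also serves the genes for 4-aminobutyrate and for some amino acid permeases, kept within 9.98 to 10.32 over all 14 samples. Its highest group mean was 10.26 ± 0.06 with valine (SD, n = 3) and its lowest 10.04 ± 0.04 without addition (n = 4).

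With ammonium added, 7 of 9 members fell relative to no addition, against a background of 35.5% of all features called lower. None rose (background 32.1% called higher, 67.6% in either direction), and DAL3 and DAL81 were not called. The members' median log2 fold change was -1.33, and that of all features was -0.02. DAL4 averaged 9.23 ± 0.87 with ammonium and 12.63 ± 0.16 without addition (SD, n = 3 and 4), a log2 fold change of -3.41 ± 0.26 (SE, limma adjusted p = 3.57e-08), or 10.6-fold lower. Only 20 of 6248 features had a more negative change. DAL1 changed by -2.02 ± 0.13, DUR3 by -1.86 ± 0.25, DAL5 by -1.46 ± 0.16 and DAL2 by -1.33 ± 0.17. Smaller decreases were those of DAL82 (-0.79 ± 0.09) and DAL7 (-0.65 ± 0.13, limma adjusted p = 5.32e-04), and DAL7 was the called gene whose groups overlapped. For DAL3 the difference was 0.17 with a 95% interval of -0.03 to 0.38, and for DAL81 it was 0.10 with an interval of -0.01 to 0.21. DAL3 was called higher when ammonium sample 1 or 3 was left out, at 0.26 and 0.25 (limma adjusted p = 0.0384 and 0.0467).

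Ammonium sample 2 lay above the other ammonium samples in the falling genes. Without it the log2 fold change of DAL4 was -3.91, that of DUR3 -2.32, that of DAL1 -2.24 and that of DAL7 -0.86, while DAL3 stood at 0.01. Within slide 1 and within slide 2, DAL4 was at -4.05 and -3.36, DUR3 at -2.05 and -1.94, DAL5 at -1.67 and -1.51, DAL1 at -2.14 and -2.03, DAL2 at -1.61 and -1.35, DAL82 at -0.92 and -0.76, and DAL7 at -1.04 and -0.61. Slide 1 held 1 ammonium and 1 no-addition array, so its values are effect sizes only. Its ammonium array was of ammonium sample 3, which also had an array on slide 2, so the slides were not independent. Slide 2 held 3 arrays of each of these groups, and all 7 of these genes were called there. The share of all features called lower within slide 2 is not given here, and in the main fit it was 35.5%.

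With valine added, 6 of 9 members fell relative to no addition (background 35.6% called lower) and DAL81 rose (background 32.3% called higher, 67.9% in either direction). The members' median log2 fold change was -0.54, and that of all features was -0.01. DAL4 averaged 8.24 ± 0.08 with valine and 12.63 ± 0.16 without addition (SD, n = 3 and 4), a log2 fold change of -4.39 ± 0.26 (SE, limma adjusted p = 3.11e-09), or 21.0-fold lower. In this comparison 4 features of 6248 had a more negative change. DAL2 changed by -2.22 ± 0.17, DAL1 by -1.85 ± 0.13, DAL7 by -1.28 ± 0.13 and DAL82 by -0.54 ± 0.09. DAL3 changed by -0.25 ± 0.10 (limma adjusted p = 0.0283), and this call was lost without any 1 of the valine samples or without no-addition sample 3 or 4 (adjusted p = 0.0550 to 0.0747) and with slide as a block (0.0669). DAL81 rose by 0.22 ± 0.05 (limma adjusted p = 0.00162).

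DAL5 and DUR3 were not called with valine. DAL5 averaged 13.56 ± 0.24 with valine and 13.50 ± 0.11 without addition, a log2 fold change of 0.05 with a 95% interval of -0.30 to 0.40. DUR3 averaged 14.02 ± 0.08 with valine and 14.15 ± 0.12 without addition, a log2 fold change of -0.13 with an interval of -0.67 to 0.40. These intervals leave room for a change of DUR3 by up to 0.67 downwards, which is smaller than its measured change with ammonium. Within slides 1 and 2 DAL5 was at 0.21 and -0.23, and DUR3 at 0.01 and -0.16. DAL4 was at -4.56 and -4.27, DAL2 at -2.23 and -2.16, DAL1 at -1.70 and -1.92, DAL7 at -1.42 and -1.19, DAL82 at -0.58 and -0.49, and DAL81 at 0.25 and 0.26. Within slide 1, with 1 no-addition array, the calls of DAL82 (limma adjusted p = 0.0509) and DAL81 (0.0955) were lost. DAL3 was at -0.21 and -0.26 within slides 1 and 2 and lost its call in both (limma adjusted p = 0.155 and 0.285).

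**Figure D2:**
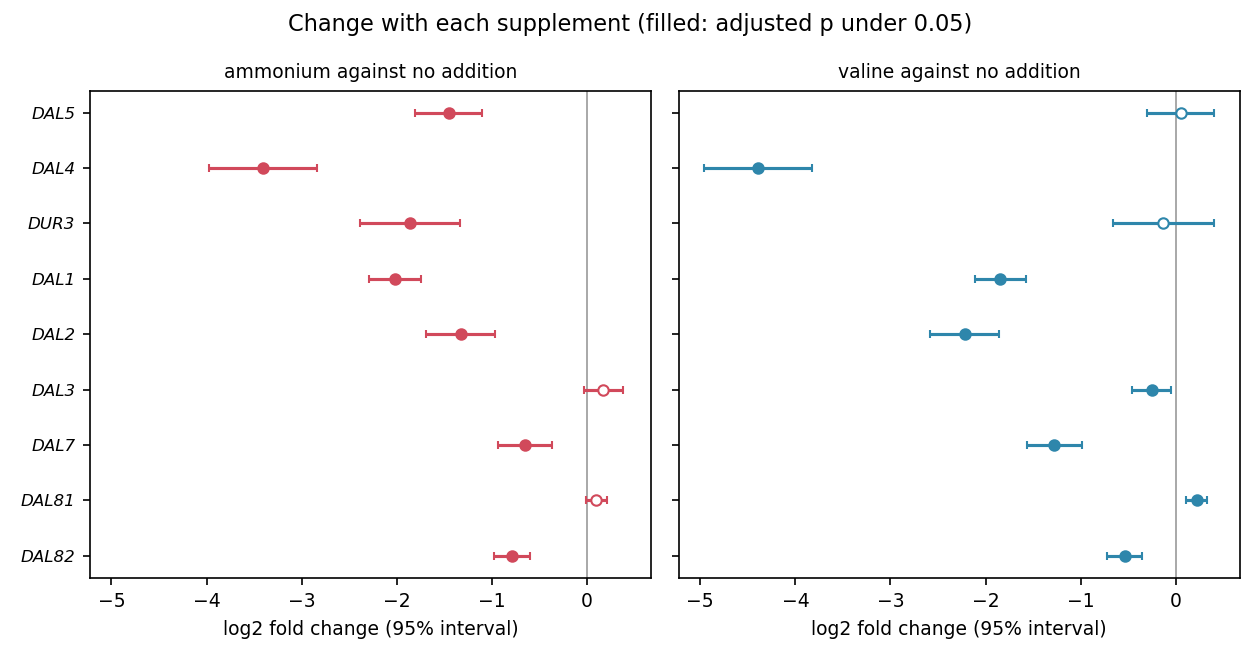
Log2 fold change (x axis) of each measured member (y axis) with ammonium (left) and with valine (right), each against no addition; points are limma estimates, bars 95% intervals and filled points genes called. With ammonium DAL5 was at -1.46 and DUR3 at -1.86, and with valine at 0.05 and -0.13. Both panels share the no-addition samples.

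The supplements were then compared with each other at equal added nitrogen. Called members were 6 of 9, against 16.4% of all features, 4 higher with ammonium (background 7.59%) and 2 lower (background 8.79%). DUR3 averaged 12.29 ± 0.79 with ammonium and 14.02 ± 0.08 with valine (SD, n = 3 each), a log2 fold change of -1.73 ± 0.26 (SE, limma adjusted p = 6.65e-04), or 3.31-fold lower with ammonium. DAL5 averaged 12.05 ± 0.41 with ammonium and 13.56 ± 0.24 with valine, a change of -1.51 ± 0.18 (limma adjusted p = 7.08e-05), or 2.84-fold. Of all features, 8 had a more negative difference than DUR3 and 11 a more negative one than DAL5.

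Called in the other direction were DAL4, DAL2, DAL7 and DAL3. DAL4 was 0.99 ± 0.28 higher with ammonium than with valine (limma adjusted p = 0.0291), DAL2 0.89 ± 0.18 (0.00466), DAL7 0.63 ± 0.14 (0.00926) and DAL3 0.43 ± 0.10 (0.0118). Among all features, 6 had a larger positive difference than DAL4 and 9 a larger one than DAL2. The size of these differences leaned on ammonium sample 2. Without it DAL4 was at 0.48, DAL2 at 0.57, DAL7 at 0.42 and DAL3 at 0.26, all still called, and DUR3 and DAL5 were at -2.18 and -1.72.

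DAL1 (-0.17, 95% interval -0.46 to 0.11), DAL82 (-0.25, -0.45 to -0.05, limma adjusted p = 0.0814) and DAL81 (-0.12, -0.24 to -0.01, 0.147) were not called between the supplements. DAL1 was called lower with ammonium, at -0.39, when ammonium sample 2 was left out (limma adjusted p = 0.00498). Within slides 1 and 2 DUR3 was at -2.06 and -1.78, DAL5 at -1.88 and -1.28, DAL4 at 0.51 and 0.91, DAL2 at 0.62 and 0.81, DAL7 at 0.38 and 0.59, and DAL3 at 0.33 and 0.39. Slide 1 held 1 ammonium and 2 valine arrays and slide 2 held 3 and 1. Of the 6 genes, DAL5 and DUR3 were called within slide 1 and none within slide 2 (limma; 5 members at an unadjusted p under 0.05). The calls of DAL4 and DAL3 were lost when the 2 groups were fitted alone (limma adjusted p = 0.121 and 0.0722), and that of DAL4 with slide as a block (0.0699) and without valine sample 1 or 2 (0.0798 and 0.0977).

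**Figure D3:**
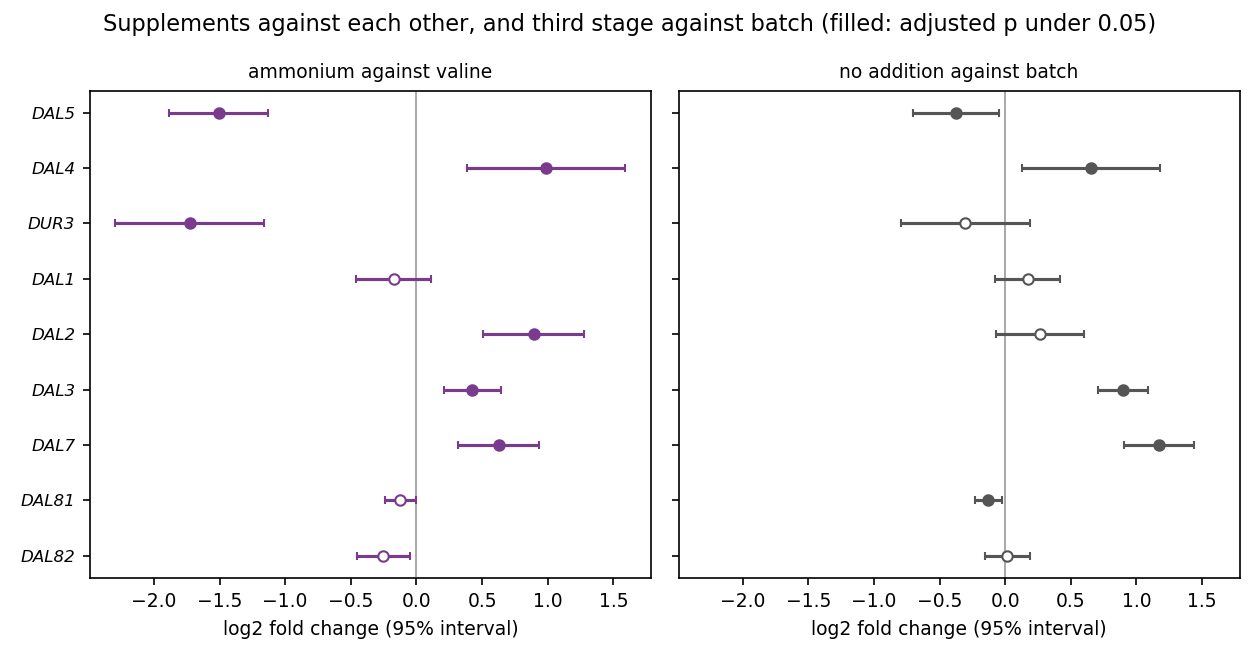
Log2 fold change (x axis) of each measured member (y axis) for ammonium against valine (left) and no addition against batch (right), with limma estimates, 95% intervals and filled points for genes called. DUR3 and DAL5 lay at -1.73 and -1.51 with ammonium relative to valine and DAL4 at 0.99, while DAL7 and DAL3 led the right panel at 1.17 and 0.90.

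The resting cells of the third stage and batch cells at equal residual glucose differed in 5 of 9 members, against 57.3% of all features called in this comparison, 3 higher (background 30.3%) and 2 lower (background 27.0%). DAL7 averaged 11.49 ± 0.20 without addition and 10.32 ± 0.09 in batch (SD, n = 4 each), a log2 fold change of 1.17 ± 0.12 (SE, limma adjusted p = 1.88e-06), or 2.25-fold. DAL3 averaged 10.69 ± 0.04 without addition and 9.80 ± 0.07 in batch, a change of 0.90 ± 0.09 (limma adjusted p = 9.51e-07). Within slides 1 and 2 DAL7 was at 1.29 and 1.15 and DAL3 at 0.85 and 0.90. DAL4 was 0.65 ± 0.24 higher (limma adjusted p = 0.0330), DAL5 lower at -0.38 ± 0.15 (0.0469) and DAL81 lower at -0.13 ± 0.05 (0.0327).

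Within slides 1 and 2 DAL4 was at 0.74 and 0.71, DAL5 at -0.38 and -0.40 and DAL81 at -0.16 and -0.18. Slide 1 held 1 no-addition array and slide 2 held 1 batch array, so these are effect sizes only. These 3 calls did not last in every alternative. That of DAL4 was lost with slide as a block (limma adjusted p = 0.0754) and without no-addition sample 1, 2 or 4 or batch sample 2, 3 or 4 (0.0608 to 0.0764). That of DAL5 was lost with slide as a block (limma adjusted p = 0.0928). It was also lost without any 1 of 7 of these 8 samples, the exception being batch sample 1 (0.0506 to 0.119). That of DAL81 was lost without no-addition sample 1 or 2 or batch sample 1 or 2 (0.0658 to 0.101). DAL1 (0.17), DAL2 (0.27), DAL82 (0.02) and DUR3 (-0.30) were not called. With these 2 groups fitted alone, 7 members were called (background 57.5%), with DAL1 (limma adjusted p = 0.0298), DAL2 (0.00129) and DUR3 (0.0290) added and DAL81 lost (0.0554). With array weights 6 were called (background 66.9%), with DAL1 and DAL2 added and DAL81 lost. Without batch sample 1, ammonium sample 2 and valine sample 3 together, a choice made after seeing the data, 7 were called (background 66.8%), again with DAL1, DAL2 and DUR3 added and DAL81 lost.

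Ammonium and valine were also set against batch, to order the 4 group means. With ammonium, 2 members were higher than in batch (background 33.2%) and 6 lower (background 35.5%, 68.7% in either direction). With valine, 1 was higher (background 31.6%) and 4 lower (background 34.8%, 66.5% in either direction). DAL4 was highest without addition, then in batch, with ammonium and with valine, and each neighbour was called apart. DAL2 had that same order, with no addition and batch not called apart. In DAL1 and DAL82 the no-addition and batch groups were not called apart at the top, nor the supplements at the bottom. In DAL7 the order was no addition, ammonium, batch and valine, with ammonium 0.52 ± 0.13 above batch (limma adjusted p = 0.00302) and valine at -0.11 against batch, not called. The ammonium difference of DAL7 from batch was 0.31 without ammonium sample 2 and 0.27 with array weights, both still called, and its call was lost within slide 1 (0.25, limma adjusted p = 0.104) and slide 2 (0.54, 0.0939). In DAL3 ammonium and no addition led without a call between them, then came valine and, 0.64 ± 0.10 lower, batch. In DAL5 and DUR3 the batch, valine and no-addition means formed a top group in which no neighbours were called apart, although batch and no addition were in DAL5, and ammonium lay below. For these, ammonium against batch gave -1.83 ± 0.16 in DAL5 and -2.17 ± 0.25 in DUR3.

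DAL1, DAL4, DAL2, DCG1, DAL7 and DAL3 lie next to each other in that order on chromosome IX of the R64 assembly. DCG1, a gene of unknown role inside this cluster, had 7.05, 7.34 and 7.16 with ammonium and 7.27, 7.21 and 7.16 with valine, against 8.02, 8.06, 8.07 and 8.06 without addition and 7.14, 7.11, 7.06 and 7.10 in batch. The no-addition samples stood above all others. The log2 fold change was -0.87 ± 0.06 with ammonium and -0.84 ± 0.06 with valine, each relative to no addition, and 0.95 ± 0.06 for no addition relative to batch (limma adjusted p = 9.28e-09). Neighbours in the cluster thus differed in which groups stood apart: DAL4, DAL1 and DAL2 were high in batch, whereas DCG1 and DAL3 had their lowest mean there. The batch samples of DCG1 overlapped the ammonium samples, and neither ammonium (0.08) nor valine (0.11) was called against batch in this gene.

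Over the 14 samples the members' profiles grouped by these patterns. Pearson's r was 0.98 between DAL2 and DAL4, 0.96 between DAL1 and DAL4 and 0.97 between DAL5 and DUR3. It was 0.64 between DAL3 and DAL7, and -0.14 between DAL5 and DAL7. These values describe samples that fall into 4 groups and share arrays, so they mostly restate the group means. Genes whose profile was most like the mean of the 7 measured transporters and enzymes were BDH2 (r = 0.99), SOD2 (0.99), HSP31 (0.99), DCS2 (0.99) and FMP16 (0.98). These were sought among 4772 named genes, of which 440 had an r over 0.9. The mean did not follow all 7 genes alike. With the mean of the others, r was 0.97 in DAL1, 0.92 in DAL4 and 0.89 in DAL2. It was 0.60 in DUR3, 0.53 in DAL5, 0.45 in DAL7 and -0.31 in DAL3.

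Among the regulators of nitrogen catabolite repression, DAL80 had 11.26, 11.64 and 11.17 with ammonium and 11.70, 11.58 and 11.82 with valine, against 12.36, 12.37, 12.44 and 12.29 without addition and 12.36, 12.09, 11.96 and 11.99 in batch. It fell by 1.00 ± 0.11 with ammonium and by 0.66 ± 0.11 with valine relative to no addition, and was -0.34 ± 0.12 with ammonium relative to valine, not called. URE2, whose product holds Gln3 back in the cytoplasm, rose by 0.37 ± 0.07 with ammonium and 0.48 ± 0.07 with valine. The activators GLN3 (0.07 and 0.03) and GAT1 (-0.17 and 0.14) and the repressor GZF3 (-0.11 and -0.06) were not called with ammonium or valine against no addition. Relative to batch, the no-addition cells were lower in GAT1 (-0.30 ± 0.10), GZF3 (-0.56 ± 0.11) and URE2 (-0.33 ± 0.06), higher in DAL80 (0.26 ± 0.10, limma adjusted p = 0.0428, groups overlapping), and at -0.07 in GLN3, not called.

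**Figure D4:**
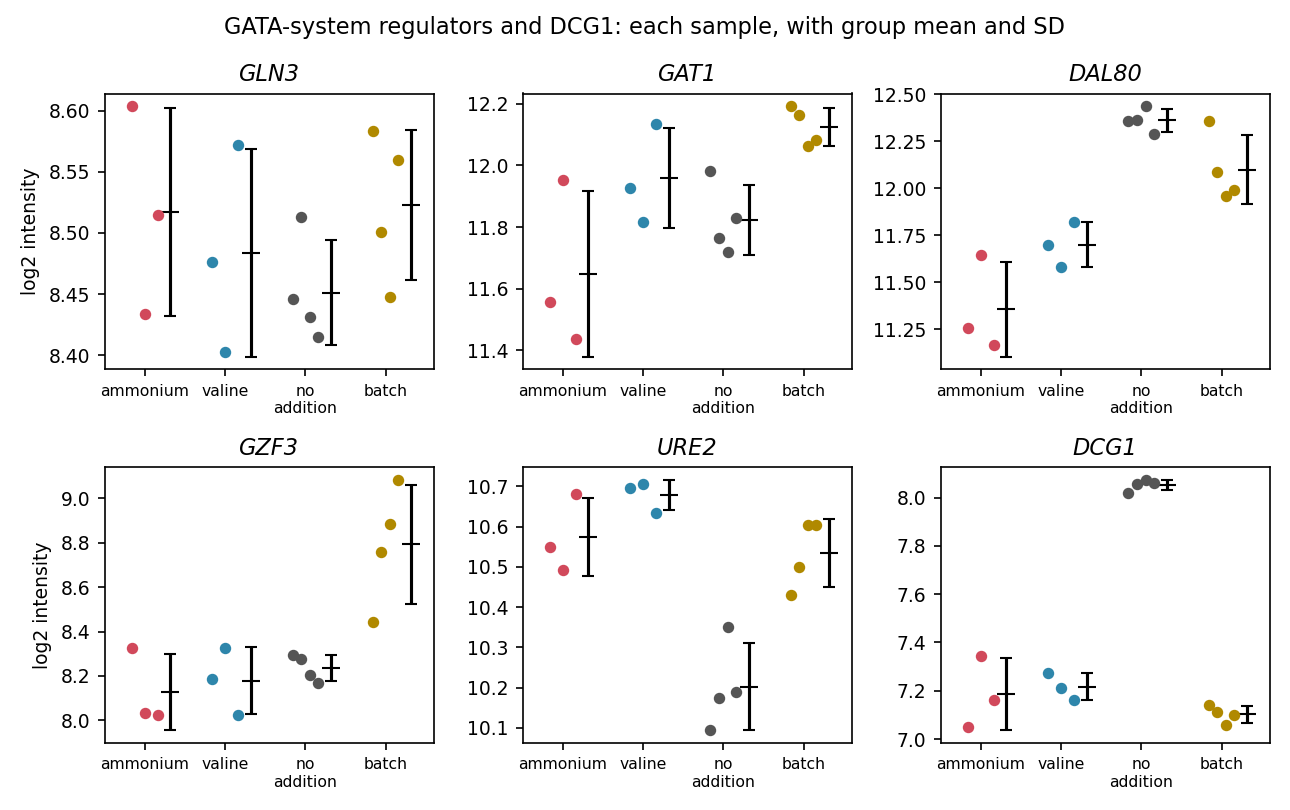
Log2 intensity (y axis) of 5 regulators of nitrogen catabolite repression and of DCG1 in each sample (points), by group (x axis), with group mean and SD (black); y axes do not start at 0 and differ between panels. DAL80 lay between 11.17 and 11.82 in supplemented samples and between 11.96 and 12.44 in the others.

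Other targets of nitrogen catabolite repression gave a mixed picture. Of 20 such genes, 12 fell and 2 rose with ammonium relative to no addition (median log2 fold change -0.66), and 12 fell and 6 rose with valine (median -0.43). Of all features, 35.5% were called lower and 32.1% higher with ammonium, and 35.6% lower and 32.3% higher with valine, so the share that rose with valine was near the background. The largest called changes with ammonium were in the proline permease PUT4 (-3.79 ± 0.26), the 4-aminobutyrate permease UGA4 (-2.26 ± 0.35), the carboxypeptidase CPS1 (2.15 ± 0.16) and the catabolic glutamate dehydrogenase GDH2 (-2.01 ± 0.09). With valine they were in the amino acid permease AGP1 (3.76 ± 0.13), CPS1 (2.15 ± 0.16), PUT4 (-2.09 ± 0.26) and the branched-chain aminotransferase BAT2 (1.90 ± 0.11). In PUT4 and UGA4 ammonium sample 2 stood above the other ammonium samples. Ammonium samples 1 to 3 had 9.66, 10.81 and 9.08 in PUT4 and 8.05, 9.97 and 7.84 in UGA4. Between the supplements, 10 of the 20 were lower with ammonium (background 8.79%) and 2 higher (background 7.59%). The largest of these differences were in AGP1 (-3.60 ± 0.14), GDH2 (-2.31 ± 0.09), BAT2 (-1.73 ± 0.11) and PUT4 (-1.70 ± 0.28). The general amino acid permease GAP1 was not named by its size and was picked out after its values were seen. Among the continuous groups it resembled DAL5 in its calls, at -0.75 ± 0.13 with ammonium, -0.13 with valine (not called) and -0.62 ± 0.14 between them. Against batch, no addition was called lower in DAL5 (limma adjusted p = 0.0469) but not in GAP1 (0.170). Valine was called lower than batch in GAP1 (0.0358) but not in DAL5 (0.0955). The arginase CAR1, a source of urea in the cell, was -0.08 with ammonium (not called) and -0.61 ± 0.12 with valine against no addition, and 1.78 ± 0.12 higher without addition than in batch.

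**Figure D5:**
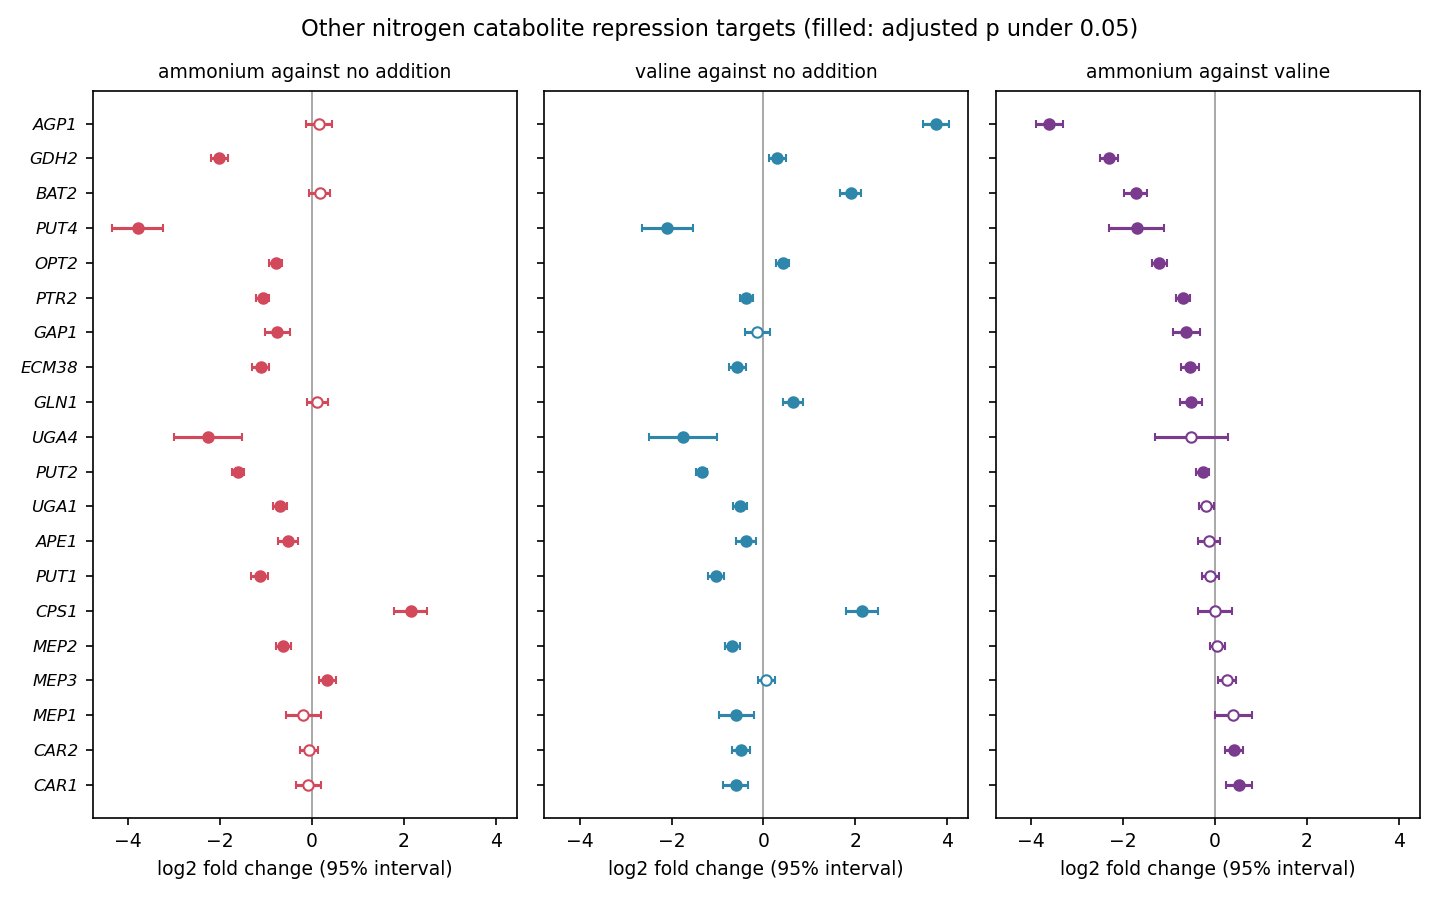
Log2 fold change (x axis) of 20 other targets of nitrogen catabolite repression (y axis) for ammonium against no addition, valine against no addition and ammonium against valine, with limma estimates, 95% intervals and filled points for genes called. Differences between supplements ran from -3.60 in AGP1 to 0.53 in CAR1.

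Of 7 genes that Dal81 serves with another factor, 4 fell and 2 rose with ammonium (background 35.5% lower and 32.1% higher), and 4 fell and 3 rose with valine (35.6% and 32.3%). UGA1 (-0.70 ± 0.07 and -0.51 ± 0.07), UGA2 (-1.16 ± 0.07 and -1.01 ± 0.07), UGA4 and the peptide permease PTR2 (-1.07 ± 0.07 and -0.38 ± 0.07) fell with ammonium and with valine. The branched-chain amino acid permeases BAP2 (0.53 ± 0.11 and 2.48 ± 0.11) and BAP3 (0.17 ± 0.06 and 0.63 ± 0.06) rose with either, and AGP1 rose with valine.

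Glyoxylate is the other product of allantoate breakdown. All 5 genes of a glyoxylate-related list fell with ammonium (background 35.5%) and with valine (35.6%). ICL1, the isocitrate lyase, forms glyoxylate rather than using it, and was at -0.25 ± 0.05 and -0.22 ± 0.05. MLS1, the other malate synthase, was at -1.23 ± 0.08 and -1.24 ± 0.08, beside DAL7 at -0.65 and -1.28. AGX1, which turns glyoxylate into glycine, was at -2.87 ± 0.12 and -2.39 ± 0.12, GOR1 (glyoxylate reductase) at -1.59 ± 0.12 and -1.76 ± 0.12, and MDH3 at -1.04 ± 0.07 and -1.13 ± 0.07. DAL7 and MLS1 are related in sequence, so a probe of either could take up signal of the other. This was not tested. Between the supplements DAL7 differed (0.63, called) and MLS1 did not pass the test (0.01, limma adjusted p = 0.953). Relative to batch, no addition was higher in DAL7 by 1.17 and MLS1 was at -0.06, not called.

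Urea amidolyase carries biotin, and 8 of 10 genes for biotin supply and other biotin enzymes rose with ammonium (background 32.1%) and 8 with valine (32.3%). The acetyl-CoA carboxylase ACC1 fell with ammonium and with valine (-0.39 ± 0.06 and -0.49 ± 0.06), and its mitochondrial counterpart HFA1 fell with ammonium (-0.18 ± 0.07) and was -0.09 with valine, not called. BIO5 (2.42 ± 0.14 and 2.48 ± 0.14), BIO3 (1.91 ± 0.13 and 1.83 ± 0.13), BIO4 (1.78 ± 0.13 and 1.77 ± 0.13), the biotin permease VHT1 (1.21 ± 0.10 with ammonium) and BIO2 (1.06 ± 0.11 with valine) were the leading ones. None of the 10 was called between the supplements, against 16.4% of all features (lowest limma adjusted p = 0.0702). Of 10 relatives of the Dal4 and Dal5 permeases, 5 rose and 3 fell with ammonium (background 32.1% higher and 35.5% lower), and 5 rose and 1 fell with valine (32.3% and 35.6%). With ammonium the uridine permease FUI1 (-0.55 ± 0.09), SEO1 (-0.20 ± 0.04) and the nicotinic acid permease TNA1 (-0.17 ± 0.06) fell, and with valine FUI1 fell (-0.39 ± 0.09). The cysteine permease YCT1 (1.98 ± 0.13 and 2.37 ± 0.13), THI73 (1.81 ± 0.13 and 1.56 ± 0.13), the uracil permease FUR4 (1.71 ± 0.11 and 1.63 ± 0.11) and the thiamine permease THI7 (1.42 ± 0.07 and 1.03 ± 0.07) rose.

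Ammonium, the end product of the pathway, is taken into glutamate by Gdh1 or Gdh3 and into glutamine by Gln1. GDH1 rose by 2.22 ± 0.10 with ammonium and 1.07 ± 0.10 with valine, and GDH3 fell by 1.64 ± 0.07 and 1.63 ± 0.07. GLN1 was 0.12 with ammonium, not called, and 0.64 ± 0.10 with valine. GDH2, which releases ammonium from glutamate, was -2.01 ± 0.09 with ammonium and 0.30 ± 0.09 with valine. GLT1, the glutamate synthase, was -0.16 ± 0.07 and -0.33 ± 0.07.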

How the data were processed

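Total RNA was hybridised as Cy3-labelled cRNA, per the labels' protocols. Each probe has a log2 intensity as deposited by the authors, a scale read from the values. R 2.13.1 and limma appear in the submitters' processing notes. How background and arrays were adjusted is not given in the sources used here. All arrays share nearly the same distribution, so differences are relative to the whole array.

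Of 6271 probes, 5220 carried 1 symbol, 1051 none and 0 several. Probes were averaged per gene with symbols updated through RefSeq's R64 table, giving 6248 features, and the 2 arrays of ammonium sample 3 were averaged. The 14 assigned samples entered 1 limma fit (3.58.1, R 4.3.3, lmFit and eBayes, 1 mean per group, 10 residual degrees of freedom, two-sided), with Benjamini-Hochberg adjustment over all features. No intensity filter was used. The members and lists were chosen with earlier results of these data known, so no list was tested as a set. Every member is named, as are the GATA regulators, DCG1, MLS1 and ammonium assimilation, and of each other list the 4 called genes with the largest change. ACC1, HFA1, FUI1, SEO1, TNA1 and ICL1 were named after their values were seen. Alternatives covered replicate and slide blocks, single slides, paired groups alone, renewed normalization, array weights, a variance trend, a filter on dim features, single arrays of ammonium sample 3 and leaving out each sample. Figures used Python 3.11.15 and matplotlib 3.10.9. The number of arrays limits the precision.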

Additional observations from a re-analysis of the deposited data

Results flagged for a closer look

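In the no-addition group DAL7 had 1 sample far from the others: sample 3 at 11.20, while the nearest other sample stood at 11.57 and the highest at 11.61. This was 1 of 22 sets of 4 samples examined for such a gap, and chance flags about 1 set in 20. The sample whose labels name ammonium in some fields and valine in others was higher than all no-addition samples in DAL3, at 10.89 against a highest no-addition value of 10.73, and in DAL81, at 10.24 against 10.08.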

How the results depend on the processing

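No member changed direction on a called difference under the alternatives run: of 1080 alternative values of the 54 member differences, 1000 stayed on their side of the threshold, 57 lost a call and 23 gained one. Of 19 same-numbered pairs of samples, 4 correlated above 0.1 in their deviations (-0.57 to 0.31). Differently numbered pairs were not correlated beside them, so these values cannot settle whether replicate numbers pair the samples. With replicate number as a block, the members called were 7 for ammonium and 7 for valine against no addition. Between supplements 6 were called. For no addition against batch 4 were called, and DAL81 lost its call there (limma adjusted p = 0.0635). In the main fit 67.6%, 67.9%, 16.4% and 57.3% of all features were called in these comparisons, in that order. The shares under the block are not given here. For no addition against batch, members called were 3 with slide as a block and 2 to 4 when 1 sample was left out. Of 6248 features, 3303 to 3862 were called in this comparison with 1 sample left out, and 57.3% in the main fit. The share with slide as a block is not given here. All features called there were 1682 within slide 1 and 2387 within slide 2. For ammonium against no addition 2477 features were called within slide 1. For valine against no addition 4 members and 2749 features were called within slide 1. Between the supplements, within slide 1 and 2 the members called were 2 and 0 (limma; 5 at an unadjusted p under 0.05 in slide 2) and the features 38 and 228. Fewer samples enter within a slide. The features called between supplements were 2471 with array weights, 1576 without batch 1, ammonium 2 and valine 3 (chosen after seeing the data), and 501 to 1115 with 1 sample left out; for these the cause was not tested. The lone sample of a group within a slide is assumed to vary like the others.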

Other observations

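The sample with contradictory labels had 8.42 in DAL1, 9.88 in DAL2, 8.69 in DAL4, 11.29 in DAL5, 10.57 in DAL7, 8.87 in DAL82 and 11.74 in DUR3. Its DAL5 value lay below the lowest ammonium sample (11.67) and below the lowest valine sample (13.28), and its DUR3 value below 11.82 and 13.93. It was nearest to the ammonium mean in 5 members, to the valine mean in 3 and to the batch mean in 1. The ammonium means include ammonium sample 2. In DAL4, counted for valine, its value lay beside ammonium samples 1 and 3 (8.72 and 8.73) and above every valine sample (highest 8.32). In DAL7, counted for batch, it lay just below ammonium sample 3 (10.59) and above every batch sample (highest 10.44). In DAL81, counted for valine, it lay within the valine samples, and in DAL82 just below them (lowest 8.89). The 2 arrays of ammonium sample 3 differed by 0.03 in DAL7, 0.04 in DAL4 and 0.29 in DAL5, the smallest and largest of the members among them, and by 0.39 in DCG1.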
